A study of Neurospora crassa with 12 samples.

Results

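Conidia are the airborne asexual spores of the filamentous fungus Neurospora crassa, in which they wait in a resting state until water and nutrients are met. On germination a spore resumes metabolism, pushes out a germ tube by growth at one pole, extends it and branches, and young germlings can fuse with each other into a network. Transcripts of genes that serve growth are then needed at levels that a resting spore does not hold. The genes described here rose steeply out of the spore and also reached a set level after it. They were chosen by their own transcript levels in this experiment: a gene was taken if the smallest of its mean levels in stages 2, 3 and 4 was at least 20 CPM and at least 16 times its mean in stage 1. CPM is counts per 1000000 counts of the library, here with the ribosomal RNA genes NCU17319 and NCU15719 left out of the total. The rule took 56 of 10592 genes. All 56 code for proteins, and they are 1.18% of the 4746 protein coding genes that meet the 20 CPM limit.

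All libraries came from the wild type strain FGSC2489 (mat A), without any mutation or drug treatment, grown on cellophane over Bird medium under constant white light at 37 °C. Stage 1 is fresh spores, stage 2 the first polar growth, stage 3 the extension of the germ tube with a doubled long axis and stage 4 the first hyphal branch, with 3 libraries per stage. Each replicate pooled tissue from several plates, and nothing in the labels says that replicates came from separate spore harvests, so p-values measure the spread between these samples. Sample titles date the stages to 15, 60, 120 and 240 min, and the time tags to 15, 120, 240 and 360 min. The study's methods give roughly the title times for Bird medium at 37 °C and the tag times for another medium (PDA). The source name also mentions PDA, so the stages are given by number. In bulk RNA, fewer cells of a kind and less RNA per cell cannot be told apart.

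Library totals lay between 42996748 and 71990884 counts, and a count of 3 equalled 0.0449 to 0.0710 CPM. Ribosomal RNA genes took 1.68% to 37.9% of counts, most in stage 3 replicate 2. The libraries of stages 2 and 4 did not separate. Over all 66 library pairs the median chi-square per gene, which grows with the difference between 2 libraries, was 1.43 to 4.67 for stage 4 with stage 2, against 1.81 to 3.25 within stage 2 and 3.73 to 5.24 within stage 4. It was 17.6 to 29.1 for stage 3 with stage 2, and 157 to 218 for stage 1 with any later stage. Within stage 1 it was 3.22 to 14.8 and within stage 3 it was 2.22 to 9.37, the higher values with stage 1 replicate 1 and stage 3 replicate 2, without which the rule took 58 and 57 genes, the 56 included. The conidial genes eas, con-6, con-8 and con-10 were highest in stage 1 and lowest in stage 3. For eas, the hydrophobin of the spore coat, the range was 10793 to 13403 CPM in stage 1, 64.0 to 65.5 in stage 2, 5.43 to 6.58 in stage 3 and 52.4 to 79.3 in stage 4. The stage labels of these libraries are therefore in doubt, and no label or file used here settles their order. Stages 2, 3 and 4 mean the libraries so labelled, and differences among them are differences between labelled groups, not steps of a time course. The part that a mistaken label would have in them was not tested.

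The 56 genes together held 0.0383% ± 0.000689 of counts in stage 1, 1.86% ± 0.127 in stage 2, 1.66% ± 0.0432 in stage 3 and 1.88% ± 0.115 in stage 4 (SD, n = 3 each, the 2 ribosomal RNA genes left out). The stage 1 mean of a gene ran from 0.0249 to 65.5 CPM with a median of 2.44, and was under 1 CPM in 13 genes and under 10 CPM in 48. The ratio of the smallest later mean to stage 1 ran from 16.9 to 2290 with a median of 35.6. It was over 100 in 12 genes and under 32 in 24. These ratios describe the choice and carry no test. In all 56 genes the lowest later library was above the highest library of stage 1, and 45 of the 56 met both limits with every single library of stages 2 to 4 set against the highest stage 1 library. Both counts use the values that chose the genes, so they describe the choice as well and are no further support for the rise.

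**Figure D1:**
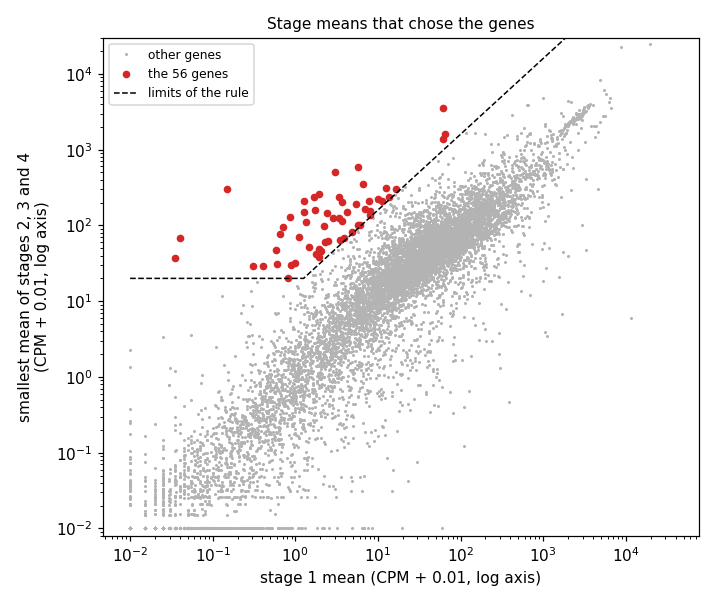
Mean of stage 1 (x axis) against the smallest mean of stages 2, 3 and 4 (y axis), both in CPM + 0.01 on log axes, for all genes (grey) and the 56 chosen genes (red). The dashed line marks the limits of 20 CPM and 16 times stage 1, and 3 genes lie far to the left with stage 1 means under 0.2 CPM and ratios over 1000.

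Just inside the limit on the ratio were pls-1 (NCU07432) at 16.9, NCU06989 at 16.9 and NCU09307 at 17.1. Just outside it were NCU04645 at 15.9, NCU07458 at 15.7 and NCU04732 at 15.4. Just inside the limit on the level were NCU09712 with a smallest mean of 20.1 CPM, NCU08433 with 29.0 and NCU07582 with 29.0. Just outside were tol (NCU04453) with 18.2 CPM, a gene of the incompatibility reaction between mating types, NCU12067 with 13.6 and NCU00832 with 11.7.

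Levels of different genes were set against each other per kb of annotated gene span. NCU03600 led with 1699.6 CPM per kb over stages 2 to 4. It was followed by NCU05789 (824), pgk (817), NCU00995 (476), NCU12021 (299.5), NCU07192 (246), NCU12022 (239), NCU04122 (239), NCU09562 (214) and acw-10 (163). The median of the 56 was 61.7 and the lowest was NCU09712 with 8.93. NCU03600 alone made up 19.4% of the counts of the group in stage 2, 32.9% in stage 3 and 19.2% in stage 4. The table of gene names gives it no symbol. Without it the group held 1.50% of counts in stage 2, 1.11% in stage 3 and 1.52% in stage 4.

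**Figure D2:**
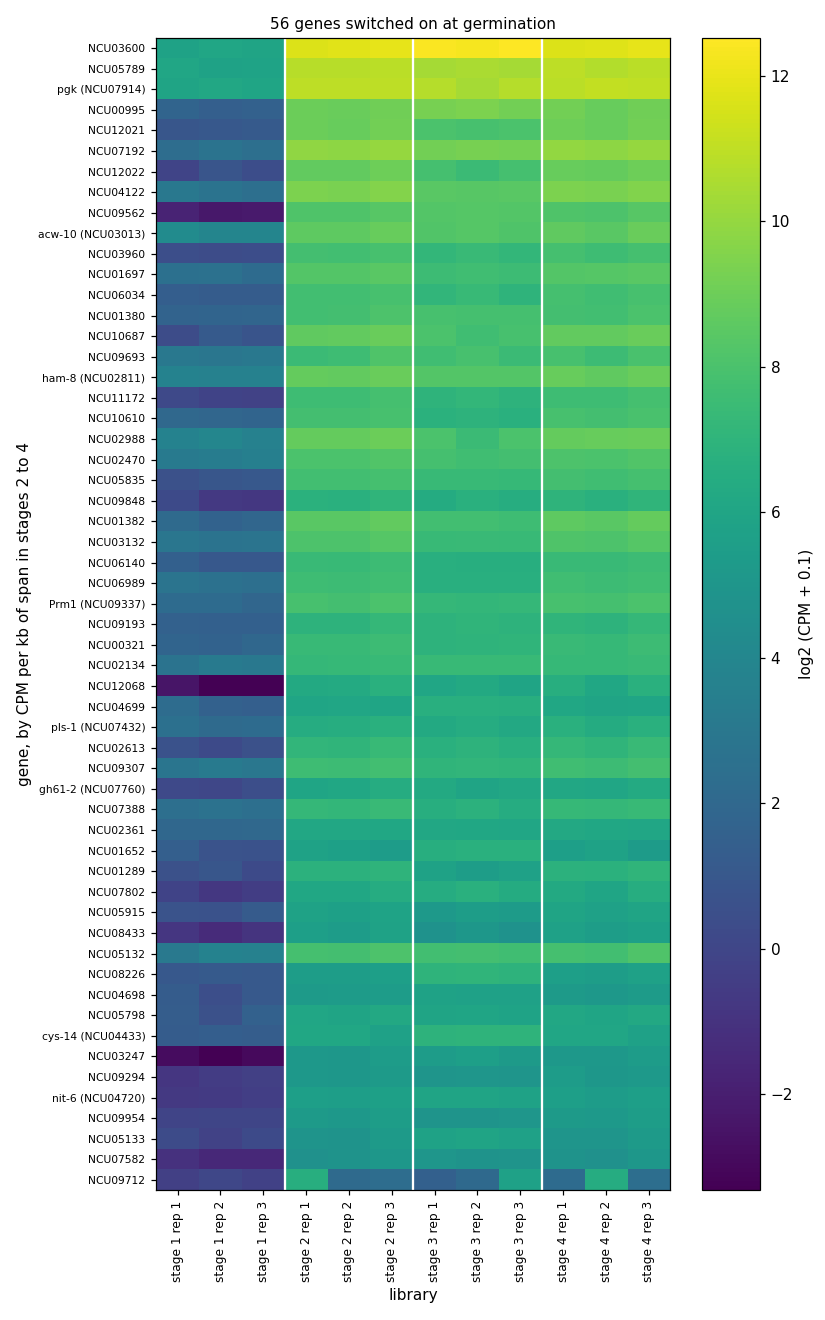
Level of each of the 56 genes (rows, ordered by CPM per kb of span in stages 2 to 4, highest at the top) in each of the 12 libraries (columns, by stage), as log2 (CPM + 0.1). Every gene is darkest in stage 1, stages 2 and 4 look alike, and NCU09712 in the bottom row is bright in 1 library of each later stage.

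The lowest levels in spores were those of NCU03247, NCU12068 and NCU09562, which also had the 3 largest ratios. NCU12068 had 0.0897, 0 and 0 CPM in stage 1, then 79.4, 81.6 and 107 in stage 2, 67.5, 77.6 and 60.3 in stage 3 and 96.9, 69.7 and 107 in stage 4. Its 6 counts in stage 1 gave a ratio of pooled counts of 2239 with an exact 95% interval of 1028 to 6103. NCU03247 had 0.0449, 0 and 0.0299 CPM in stage 1, against a lowest later library of 34.0 CPM. Its 5 counts gave 1491 (639 to 4594). NCU09562 had 0.194, 0.107 and 0.120 CPM in stage 1, then 279.9, 280.0 and 341 in stage 2, 311, 324 and 313 in stage 3 and 288, 275 and 342 in stage 4. Its 28 counts gave 2149 (1487 to 3235). These intervals treat each count as an independent event. The counts derive from coverage, so the intervals can be too narrow even for counting error. They leave out the spread between libraries. NCU09562 shares 1299 bases of its span with NCU09561, which had means of 13.8 CPM in stage 1, 24.7 in stage 2, 24.6 in stage 3 and 26.0 in stage 4. None of the 3 leading genes has a symbol, and neither NCU03247 nor NCU09562 passed a test among the later stages.

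A symbol was known for 8 of the 56 genes (14.3%), against 11.5% of all protein coding genes. They fall into central metabolism, cell fusion, the cell surface, the oxidative cleavage of polysaccharides and the uptake and use of sulfur and nitrogen.

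The gene of central metabolism was pgk (NCU07914, chromosome IV, 1370566 to 1372853), for phosphoglycerate kinase, an enzyme of glycolysis that forms ATP. It had 60.9, 72.4 and 63.3 CPM in stage 1, 1991, 1960.0 and 2006 in stage 2, 1733, 1346 and 1749 in stage 3 and 1879, 2139 and 2029 in stage 4. The spores held a clear level of this transcript, which in stage 1 was the highest mean of the 56 genes. All stage 3 libraries lay below all libraries of stages 2 and 4. The span of pgk overlaps that of NCU07913 by 483 bases, and NCU07913 stood at 17.96 CPM in stage 1 and 92.1 in stage 2.

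A pair of genes serve cell fusion. ham-8 (NCU02811, chromosome I, 9041203 to 9044883) is needed for germling and hyphal fusion in N. crassa. It had 12.98, 12.5 and 12.3 CPM in stage 1, 432, 426 and 474 in stage 2, 314, 312 and 310.2 in stage 3 and 453, 399 and 471 in stage 4. Prm1 (NCU09337, chromosome II, 4147012 to 4150433), a membrane protein that acts in the merger of the plasma membranes of fusing cells, had 4.49, 4.46 and 3.71 CPM in stage 1, 237, 225 and 266 in stage 2, 151, 146 and 149 in stage 3 and 239, 228 and 267 in stage 4. Both were tightly grouped in stage 3 and lower there than in every library of stages 2 and 4.

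Other ham genes, set beside ham-8 after its values were seen, also had more transcript after stage 1 but stayed under the limit of the rule. ham-6 had means of 12.5 CPM in stage 1, 179.7 in stage 2, 160.0 in stage 3 and 187 in stage 4, a ratio of 12.8. ham-7 had 15.0, 268, 175 and 269 CPM in stages 1 to 4, a ratio of 11.6. ham-9 reached a ratio of 4.78 and ham-5, which encodes a scaffold of the MAP kinase pathway of fusion, 4.20. The remaining ham genes of the name table (ham-2, ham-3, ham-4 and ham-10) lay between 1.47 and 1.98.

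At the cell surface, acw-10 (NCU03013, chromosome I, 8440393 to 8442693) is named as an anchored cell wall protein. It had 19.7, 14.9 and 15.0 CPM in stage 1, 380.1, 382 and 459.7 in stage 2, 305, 321 and 291 in stage 3 and 402, 359 and 473 in stage 4. Of the 11 acw genes it alone met the rule, with acw-9 next at a ratio of 8.12 and a stage 3 mean of 1979 CPM, while 6 of the 11 (acw-2, acw-3, acw-5, acw-6, acw-11 and acw-12) had lower means in every later stage than in spores, with ratios of 0.269 for acw-12 to 0.790 for acw-11.

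pls-1 (NCU07432, chromosome I, 644063 to 646234) encodes a tetraspanin, a membrane protein of a family that plant pathogenic fungi need to enter their host. It had 5.59, 4.29 and 4.58 CPM in stage 1, 88.8, 94.4 and 107 in stage 2, 78.7, 89.1 and 76.5 in stage 3 and 109, 84.7 and 109 in stage 4. Stage 3 overlapped both other later stages in this gene.

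gh61-2 (NCU07760, chromosome V, 394274 to 396048) belongs to the copper-dependent lytic polysaccharide monooxygenases, enzymes known for the oxidative cleavage of cellulose. It had 1.02, 0.951 and 1.301 CPM in stage 1, 64.3, 69.6 and 88.1 in stage 2, 77.6, 61.6 and 73.0 in stage 3 and 71.8, 65.1 and 83.3 in stage 4. Its later stages overlapped throughout. Among the 11 gh61 genes, gh61-7 had a ratio of 33.0 but reached no more than 12.2 CPM in a stage mean, and gh61-9 had a ratio of 6.26.

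Sulfur and nitrogen were each represented by a single gene. cys-14 (NCU04433, chromosome IV, 3375754 to 3380167) encodes the sulfate permease known from mycelium. It had 2.30, 2.61 and 2.48 CPM in stage 1, 70.0, 70.6 and 53.8 in stage 2, 123, 125 and 127 in stage 3 and 66.2, 66.4 and 53.1 in stage 4. Stage 3 was thus highest, without overlap. The regulator gene cys-3, which controls sulfur uptake genes, had means of 445 CPM in stage 1, 391 in stage 2, 453 in stage 3 and 402 in stage 4, and no cys gene other than cys-14 had a ratio over 2.34.

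nit-6 (NCU04720, chromosome VI, 534862 to 539145) encodes nitrite reductase, which takes nitrite to ammonium. It had 0.508, 0.552 and 0.658 CPM in stage 1, 48.3, 48.0 and 52.1 in stage 2, 60.5, 60.1 and 55.8 in stage 3 and 48.1, 43.4 and 49.8 in stage 4. With a ratio of 82.2 it stood above nit-3, for nitrate reductase (5.33), and nit-10, for a nitrate transporter (4.08). The regulators nit-2 and nit-4 had ratios of 0.928 and 0.605.

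**Figure D3:**
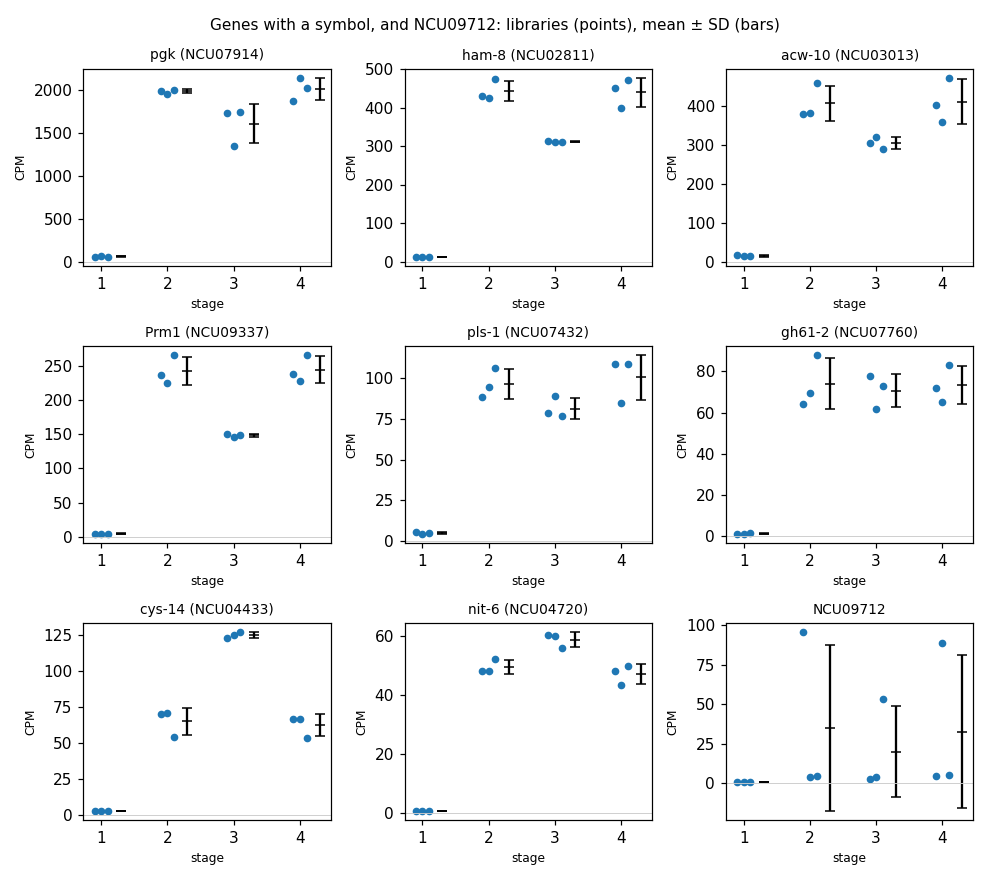
Level in CPM (y axis, linear, own scale per panel) by stage (x axis) for the 8 genes with a symbol and for NCU09712; points are libraries and the bars beside them the mean ± SD (n = 3). Stage 3 is the lowest later stage in pgk, ham-8, acw-10, Prm1 and pls-1 and the highest in cys-14 and nit-6, and in NCU09712 a single library of each later stage lies above 50 CPM.

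The later stages were compared with each other by edgeR's quasi-likelihood test over all 8330 genes tested, with Benjamini-Hochberg adjustment and a threshold of 0.05. The choice of the genes used the 3 later means only through the smallest of them. All 56 genes were among those tested. The comparisons of stage 3 with stage 2 and of stage 4 with stage 3 share the stage 3 libraries, so neither is a separate check of the other. Since stages 2 and 4 did not separate, the second largely mirrors the first with the opposite sign. Their values are given side by side.

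In stage 3 the group was lower than in stage 2. Of the 56 genes, 33 fell (58.9%) and 9 rose (16.1%), whereas 18.2% of all genes tested fell and 20.8% rose. Among the 4746 protein coding genes at 20 CPM or more, 20.1% fell and 22.4% rose. The median log2 change was -0.44 in the 56 genes and 0 over all genes tested. Of the 33 falls, 6 reached 1 on the log2 scale and 12 were under 0.5, shares that were not counted over all genes. The median size of the log2 change, whatever its sign, was 0.51 in the 56 genes. It was 0.17 in the 4746 genes at 20 CPM or more. The median standard error was 0.0948 over the 56 genes.

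In stage 4 the group was higher than in stage 3. Here 34 genes rose (60.7%) and 8 fell (14.3%), against 18.2% and 20.8% of all genes tested and 20.1% and 21.7% of those at 20 CPM or more. The median log2 change was 0.47, against -0.0015 over all genes. The 33 genes that fell in stage 3 were all among the 34 that rose in stage 4, and the 8 lower in stage 4 were all higher in stage 3 than in stage 2. Both comparisons use the stage 3 libraries, and stages 2 and 4 did not separate. This overlap was therefore largely built in and is no separate result. NCU12068 had a log2 change of 0.46 ± 0.17 SE in stage 4 over stage 3 (edgeR adjusted p = 0.046) and of -0.44 ± 0.17 in stage 3 over stage 2 (edgeR adjusted p = 0.057). The first of these calls was lost in 6 alternatives and the second was gained in 9. NCU00995 had a log2 change of 0.24 ± 0.080 in stage 3 over stage 2 (edgeR adjusted p = 0.031), lost in 10 alternatives, and of -0.18 ± 0.080 in stage 4 over stage 3 (edgeR adjusted p = 0.085). No test passed in either comparison for 13 genes, a count that was not made over all genes tested.

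Between stage 4 and stage 2 no gene passed, either among the 56 or among all 8330 (0% called). At an unadjusted p under 0.05 edgeR counted 136 of all genes and 0 of the 56. The 136 are a smaller share of the 8330 than the 0.05 that would pass with no difference between independent groups. After adjustment DESeq2 called 1 gene in all. The log2 differences of the 56 genes lay between -0.11 and 0.07 with a median of 0.01. Leaving NCU09712 aside, no difference had a size beyond 0.38 even when 2 standard errors were added. The lowest of the 3 later means was that of stage 3 in 42 genes, stage 2 in 10 and stage 4 in 4. The same count was not made over all genes, and the smallest later mean is a value that chose the genes. These numbers are therefore a description alone.

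**Figure D4:**
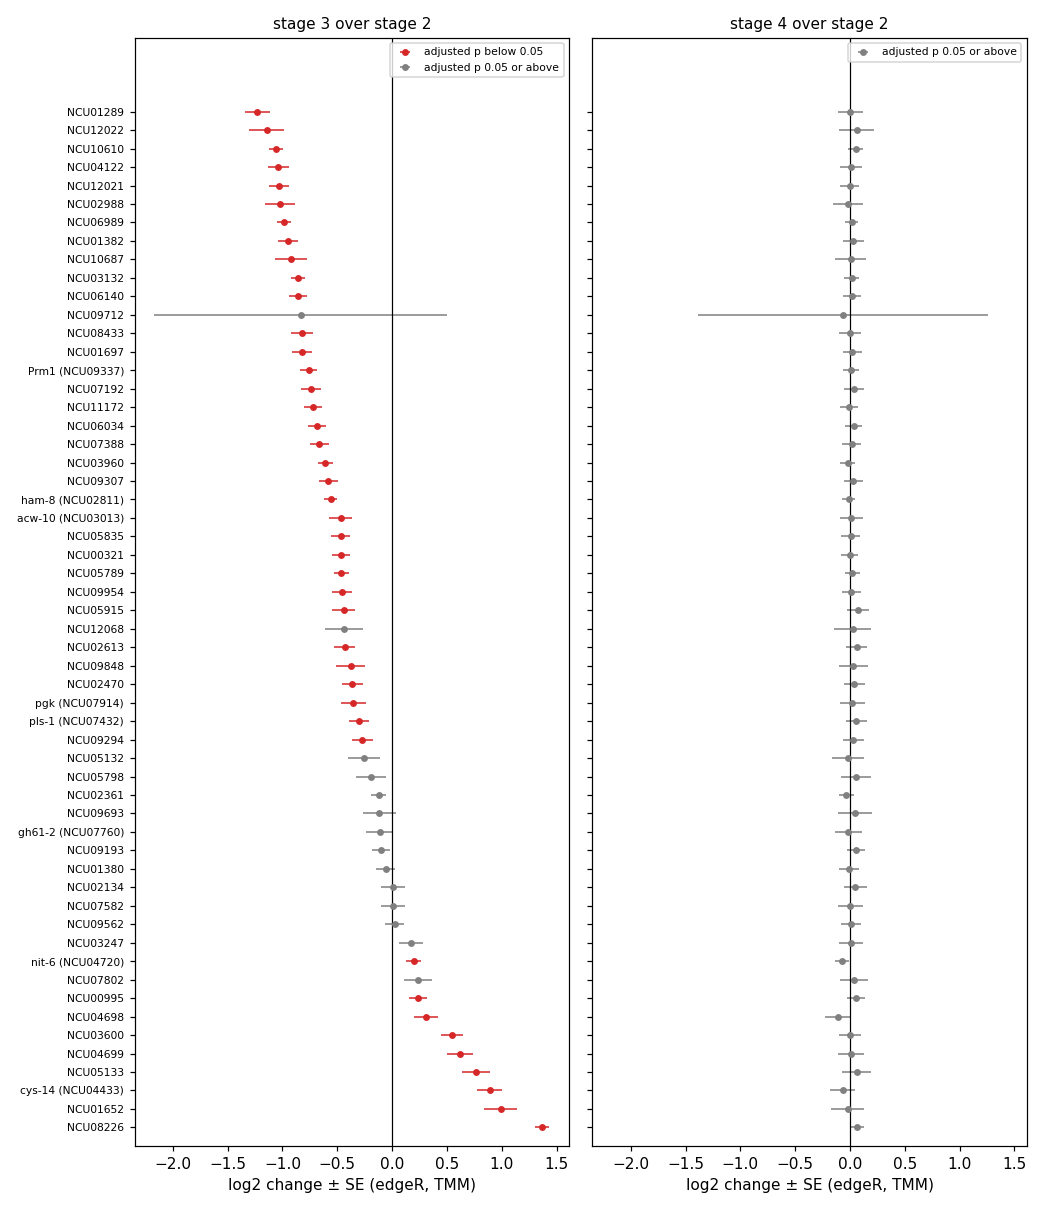
Log2 change ± SE (x axis) of each of the 56 genes (rows, ordered by the left panel) in stage 3 over stage 2 (left) and stage 4 over stage 2 (right), from edgeR with TMM scaling; red marks an adjusted p below 0.05. In the left panel 33 genes lie to the left in red and 9 to the right, and in the right panel none is red.

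The deepest falls in stage 3 were those of NCU01289, NCU12022, NCU10610, NCU04122, NCU12021 and NCU02988, with log2 changes of -1.23 to -1.02. None of the 6 has a symbol. NCU01289 had 56.5, 46.1 and 54.5 CPM in stage 3, against 118, 114 and 124 in stage 2 (log2 change -1.23 ± 0.11 SE, edgeR adjusted p = 2.7e-06). Libraries labelled stage 4 had 114, 113 and 130.5 CPM. NCU10610 had 113, 123 and 106 CPM in stage 3, against 222, 216 and 245 in stage 2 (-1.06 ± 0.068, edgeR adjusted p = 1.4e-07). NCU04122 had 349.6, 344 and 349.6 CPM in stage 3, against 665, 641 and 757 in stage 2. NCU02988 had 267, 179 and 259 CPM in stage 3, lowest in the library rich in ribosomal RNA, against 446, 443 and 495 in stage 2.

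Genes that were higher in stage 3 were led by NCU08226, with 125, 131 and 119 CPM in stage 3, against 44.9, 45.1 and 50.0 in stage 2 (log2 change 1.37 ± 0.066 SE, edgeR adjusted p = 1.9e-08). NCU01652 had 96.5, 106 and 106 CPM in stage 3, against 55.4, 51.0 and 43.4 in stage 2 (0.99 ± 0.15, edgeR adjusted p = 2.0e-04). cys-14, the sulfate permease gene, followed with 0.89 ± 0.11 (edgeR adjusted p = 4.8e-05), then NCU05133 with 0.76 ± 0.13 and NCU04699 with 0.62 ± 0.12. Stages 2 and 3 did not overlap in these 5 genes, which were picked as the largest called rises, so this is no further result. The share of such genes among all genes tested was not counted. NCU03600, the most abundant of the 56 per kb, had 5485, 5015 and 5885 CPM in stage 3, against 3308, 3551 and 3936 in stage 2 (0.55 ± 0.10, edgeR adjusted p = 7.5e-04). Libraries labelled stage 4 had 3348, 3501 and 3950.3 CPM. The call for NCU03600 was lost when library totals replaced TMM scaling (0.47).

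Of the genes with symbols, 5 fell in stage 3. Their log2 changes were -0.76 ± 0.076 SE for Prm1, -0.56 ± 0.060 for ham-8, -0.47 ± 0.10 for acw-10, -0.35 ± 0.11 for pgk and -0.30 ± 0.094 for pls-1 (edgeR adjusted p = 5.0e-06, 9.0e-06, 0.0031, 0.024 and 0.022). In stage 4 over stage 3 the same 5 rose, by 0.77, 0.55, 0.48, 0.38 and 0.36 on the log2 scale. Both calls of pgk were lost without stage 3 replicate 2, with changes of -0.23 and 0.25, and with library totals in place of TMM, with larger changes of -0.42 and 0.49. Its call in stage 4 over stage 3 was also lost without stage 4 replicate 2 (0.34). pls-1 lost its call in 5 alternatives, with changes of -0.41 to -0.25. nit-6 was called higher in stage 3 by 0.20 ± 0.065 (edgeR adjusted p = 0.030), a call that 11 alternatives did not keep, with values of 0.09 to 0.20. gh61-2 had -0.11 ± 0.13 (edgeR adjusted p = 0.51).

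The 33 genes that fell in stage 3 and the 9 that rose were also set side by side by level. The median was 75.9 CPM per kb over stages 2 to 4 in those that fell and 23.1 in those that rose. Their ratios to stage 1 had medians of 36.0 and 25.6, with ranges of 16.9 to 167 and 18.7 to 170. These ratios take the smallest later mean, a value that chose the genes. It was the stage 3 mean in genes that fell and a stage 2 or stage 4 mean in those that rose. The medians of the ratio thus set different stages against stage 1. The differences in level and in ratio were not tested.

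NCU09712 (chromosome VII, 1383089 to 1386370) met the rule through single libraries. It had 0.718, 0.936 and 0.733 CPM in stage 1, 95.7, 4.29 and 4.93 in stage 2, 2.77, 4.24 and 53.4 in stage 3 and 4.61, 88.6 and 5.22 in stage 4. In each later stage 1 library was more than 10 times the others, namely replicate 1 of stage 2, replicate 3 of stage 3 and replicate 2 of stage 4. No other gene in the table was at least 4 times higher in these same 3 libraries than in the rest of their stages. The coefficient of variation within a later stage was 143% to 150.4% in NCU09712, whereas the median over the 56 genes was 8.76% in stage 2, 5.40% in stage 3 and 8.73% in stage 4. Without replicate 1 of stage 2, replicate 3 of stage 3 or replicate 2 of stage 4, in turn, 55 of the 56 genes were chosen again.

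Some of the genes lie next to each other, on coordinates of the assembly NC12. NCU12022 (chromosome VII, 1568960 to 1570548) and NCU12021 (1570143 to 1571561) overlap by 406 bases and belong to the predicted secondary metabolite gene cluster that the study numbers 18. NCU12022 had 0.852, 1.72 and 1.24 CPM in stage 1, 423, 427 and 510.2 in stage 2, 234, 176 and 227 in stage 3 and 457, 446 and 516 in stage 4. NCU12021 had 1.79, 1.92 and 2.12 CPM in stage 1, 496, 466 and 565 in stage 2, 268, 244 and 263 in stage 3 and 514, 452 and 559 in stage 4. Both fell in stage 3 over stage 2, with log2 changes of -1.14 ± 0.16 and -1.03 ± 0.089 SE (edgeR adjusted p = 9.5e-05 and 1.6e-06). The deposited counts came from strand-aware alignment, but the strand of these 2 genes was not looked at here. How reads in the shared bases were divided between them is therefore not known here. The other 8 genes of that cluster had ratios to stage 1 of at most 2.46.

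The remaining gene of such a cluster was acw-10, in number 2. There NCU03015 had a ratio of 11.4, erg-4, a gene of ergosterol synthesis, 5.99, and lys-3, of lysine synthesis, 0.315. In all, 3 of the 177 cluster genes were members. Of the 140 that could be tested, 46 rose (32.9%) and 19 fell (13.6%) in stage 3 over stage 2, against 20.8% and 18.2% of all genes tested. In stage 4 over stage 3, 21 rose (15.0%) and 45 fell (32.1%), against 18.2% and 20.8%. All 3 members fell in the first and rose in the second comparison.

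NCU04698 and NCU04699 on chromosome VI lie 335 bases apart, and both were higher in stage 3. NCU04699 had 104, 104 and 99.7 CPM in stage 3, against 63.0, 65.9 and 63.7 in stage 2. NCU04698 had 55.0, 52.9 and 54.0 CPM in stage 3, against 40.5, 41.5 and 43.9 in stage 2, a log2 change of 0.31 ± 0.11 SE (edgeR adjusted p = 0.040) that 10 alternatives did not keep. NCU05133 and NCU05132, 2365 bases apart on the same chromosome, differed. NCU05133 had 55.0, 61.4 and 53.0 CPM in stage 3, against 28.9, 27.8 and 39.3 in stage 2. NCU05132 had 213, 218 and 207 CPM in stage 3, against 230.3, 225 and 279 in stage 2 (-0.26 ± 0.14, edgeR adjusted p = 0.18). NCU01380 and NCU01382 on chromosome V have NCU01381 between them. NCU01382 fell in stage 3, with 208, 213 and 197 CPM in stage 3, against 359, 361 and 429.6 in stage 2, while NCU01380 showed -0.06 ± 0.089 (edgeR adjusted p = 0.63). No 3 of the genes stood in a row.

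Outside these pairs, 105 protein coding genes flanked the 56 without being chosen. Of these, 14 (13.3%) had a smallest later mean of at least 1 CPM and at least 4 times stage 1, against 3.67% (356 of 9701) of all protein coding genes outside the group. Of the 98 flanking genes that do not overlap a chosen gene, 13 (13.3%) did so. Examples were NCU09295 with a ratio of 14.3, NCU12067 beside NCU12068 with 48.3 and NCU08225 beside NCU08226 with 7.02. NCU08225 had means of 123 CPM in stage 3 and 79.6 in stage 2.

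The gaps around the genes were wider than those around other expressed genes. The gaps to both neighbours summed to a median of 2376.5 bases, against 1210.5 for genes at 20 CPM or more, and 9 of the 56 (16.1%) overlapped a neighbour, against 28.9%. Median span was 2448 bases, against 2615. Chromosome I held 14 of the 56, V 12, VII 11, VI 8, II and IV 4 each and III 3. Shares above those of genes at 20 CPM or more were found on VII (19.6% against 9.10%), VI (14.3% against 8.28%) and V (21.4% against 17.6%). Lower shares were found on III (5.36% against 13.3%), IV (7.14% against 14.2%), II (7.14% against 10.8%) and I (25% against 26.7%). These counts were not tested.

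Lists of genes by symbol placed few of the 56. The list of cell wall and carbohydrate-active enzyme genes held 107, of which acw-10 and gh61-2 were chosen. Of its 93 tested genes, 20 rose and 21 fell in stage 3 over stage 2, and 19 rose and 17 fell in stage 4 over stage 3. These are 21.5% and 22.6%, then 20.4% and 18.3%, near the 20.8% and 18.2%, then 18.2% and 20.8%, of all genes tested. The list of amino acid, vitamin and nucleotide synthesis, drawn by the stems of gene symbols, held 63, all of them tested. It took in the cys genes by their stem and so cys-14, a transporter gene and the only one of this list that was chosen. Of the 63, 18 rose (28.6%) and 6 fell (9.52%) in stage 3 over stage 2, against 20.8% and 18.2% of all genes tested. In stage 4 over stage 3, 6 rose (9.52%) and 20 fell (31.7%), against 18.2% and 20.8%. The lists of transporters by symbol stem (6 genes, without cys-14), oxidoreductases (10), transcription factors (28), ribosome and translation (8), cell cycle and polar growth (23), lipids and sterols (5) and light and conidiation (25) held none of the 56. Symbols cover a small share of genes, and the other 48 chosen genes are known here by number alone.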

How the data were processed

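Messenger RNA was sequenced from 12 libraries, grouped by stage from the labels. The deposited table holds expected counts per gene. As the submitters' processing notes and the study's methods state, the authors used CASAVA 1.8.2, trimmed the reads, aligned them strand-aware to the OR74A genome with HISAT2 2.1.0 and derived the counts with StringTie 1.3.3b, without normalization. These counts come from coverage (the value 3 occurs 1482 times and 1 occurs 953 times) and need not be independent events. The exact intervals can therefore be too narrow even for counting error. A second deposited table of the authors' ratios per stage and their interval widths was not used. Columns without a sample numbered 0.

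Levels are CPM without 2 ribosomal RNA rows. For the tests, expected counts, which are whole as deposited, passed edgeR's filterByExpr (a minimum count of 10 and a minimum total of 15), were scaled by TMM (factors 0.730 to 1.09) with all rows, and were fitted in edgeR 4.0.16 (limma 3.58.1, R 4.3.3) over 12 libraries. The common coefficient of variation was 10.8%. The standard error is the log2 change over the root of the F statistic. Names, spans and chromosomes come from RefSeq (NC12), in which 10590 of 10592 IDs were found. The tables were made with pandas 2.3.3 and scipy 1.17.1 under Python 3.11.15 (numpy 2.4.6), the figures with matplotlib 3.10.9. The fit was tested on simulated data. Members and gene lists were chosen with earlier results of these data known. Genes were named by rule: those with symbols, the 10 highest levels, the 5 largest ratios, the 6 largest called rises and falls per comparison, cluster genes, neighbours, those nearest the limits and list members. The ham, acw, cys, nit and gh61 relatives, the pairs of neighbours and genes with flanking rises were added after their values were seen. Product names, sequences and strand were not analysed here. Alternatives were other scalings, filters, tools and sets of libraries.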

Additional observations from a re-analysis of the deposited data

How the results depend on the processing

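Over 20 alternatives per comparison no member reversed its direction while called. For stage 3 over stage 2, 33 of the 42 calls among the members were kept in every alternative, and for stage 4 over stage 3, 35 of 42. With library totals in place of TMM, the median of all genes moved to -0.10 in stage 3 over stage 2 and to 0.13 in stage 4 over stage 3. Calls over all genes then numbered 1499 (625 higher and 874 lower, against 1732 and 1515 with TMM) and 1704 (1080 and 624, against 1514 and 1736). Of the members, 5 were called higher and 29 lower in stage 3 over stage 2, and 33 higher and 5 lower in stage 4 over stage 3. The medians over all 56 members were -0.55 and 0.61. With library totals but ribosomal RNA genes left out, a setting added after seeing the data, 1976 genes were called higher and 1112 lower in stage 3 over stage 2, and 1127 higher and 1976 lower in stage 4 over stage 3. The members' medians were then -0.39 and 0.42, with 9 higher and 30 lower, and 31 higher and 8 lower. For stage 4 over stage 2, library totals and DESeq2 called 1 gene each, no member.

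Leaving out 1 library at a time gave 2655 to 3712 calls over all genes in stage 3 over stage 2, with 6 to 9 members higher, 30 to 35 lower and a median of -0.51 to -0.39. In stage 4 over stage 3 it gave 2770 to 3746 calls, 31 to 35 members higher, 6 to 8 lower and a median of 0.43 to 0.54. In stage 4 over stage 2 it gave 0 to 1 call, 0 members and a median of -0.02 to 0.09. The rule itself chose 55 to 59 genes. It chose 125 at a fold of 8, 32 at a fold of 32, 60 at 10 CPM, 48 at 40 CPM, 48 with all rows in the total, 52 with TMM and, added after seeing the data, 45 with every single library.

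Replicate numbers did not meet the condition for pairing over all stages, since 6 of 18 same-numbered pairs correlated above 0.1 (range -0.39 to 0.32). Between stages 4 and 2, though, the 3 same-numbered pairs had the 3 lowest chi-square values of 9 (1.43 to 2.58, against 2.80 to 4.67), a hint of pairing from the data and not from the labels. With the replicate block, 3128, 3168 and 0 genes were called in the 3 comparisons, and 9 members rose and 31 fell in stage 3 over stage 2, 33 rose and 8 fell in stage 4 over stage 3. Stage 1 ratios over 1000 rest on 5 to 28 counts.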
